A study of Mus musculus with 7 samples.

Results

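The mucin genes described here are Muc1, Muc4, Muc15, Muc16, Muc20, Muc13, Muc5b and Muc6, 8 of the 31274 rows of a gene expression table from the mouse uterus. They were chosen by symbol, and all 8 symbols had a row. RNA sequencing was performed on uteri of intact, untreated CD-1 females (an outbred stock, for which the labels name no engineered allele) aged 2 months. The uteri were taken at diestrus, the stage of the estrous cycle under progesterone (4 libraries), or at estrus, which follows the estradiol peak (3 libraries). Nothing in the labels ties a library to its own animal. The p-values below therefore rest on library-to-library spread, part of which may be technical. The labels call both groups unexposed controls. Values are FPKM, fragment counts scaled to transcript length and sequencing depth. Levels can thus be compared between genes only roughly, given the repeats and shared exon bases described below. Absolute depth was unknown. Relative depth, read from the spacing of the lowest values, ran from 0.92 to 1.36 times that of estrus replicate 1.

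Mucins are large proteins whose central regions are rich in serine, threonine and proline and carry dense O-linked sugar chains. Membrane mucins stay anchored in the apical surface of epithelial cells and form the glycocalyx, while gel-forming mucins are secreted and make mucus. In the uterus the mucin coat of the luminal epithelium lubricates and protects the surface, and Muc1 is known as a barrier to embryo attachment whose level follows ovarian steroids. Of the genes described, Muc1, Muc4, Muc13, Muc15, Muc16 and Muc20 encode membrane mucins, and Muc5b and Muc6 encode gel-forming mucins.

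The sequence feature that defines the family was present in all 8 genes. In the longest coding sequence of each gene in GENCODE M21 (build GRCm38), codons for serine, threonine or proline made up 33.8% (Muc5b) to 44.8% (Muc4) of all codons. The median over 21122 protein-coding genes with at least 100 codons was 18.7%, and each of the 8 lay above the 99.0th percentile. The stretches below start the 100-codon window richest in these codons in each of the 4 mucins that could be tested, and show what the membrane mucin messages look like. Each holds 120 bases, capitals mark codons for serine, threonine or proline, and positions are counted from the first coding base. The stretch of Muc1 covers bases 334 to 453, that of Muc4 bases 82 to 201, that of Muc20 bases 403 to 522 and that of Muc16 bases 17893 to 18012.
Muc1: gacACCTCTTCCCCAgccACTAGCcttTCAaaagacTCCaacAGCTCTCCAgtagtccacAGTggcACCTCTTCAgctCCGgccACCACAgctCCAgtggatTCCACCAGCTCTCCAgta
Muc4: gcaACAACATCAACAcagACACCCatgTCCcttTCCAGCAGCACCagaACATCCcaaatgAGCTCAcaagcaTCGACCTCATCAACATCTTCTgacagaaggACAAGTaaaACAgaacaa
Muc20: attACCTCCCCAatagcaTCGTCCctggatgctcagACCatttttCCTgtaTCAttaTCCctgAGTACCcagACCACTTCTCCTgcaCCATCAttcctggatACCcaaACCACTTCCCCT
Muc16: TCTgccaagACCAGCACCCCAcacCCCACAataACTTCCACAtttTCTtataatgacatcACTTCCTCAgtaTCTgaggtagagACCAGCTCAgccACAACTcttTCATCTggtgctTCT
Capital codons numbered 24, 25, 22 and 23 of 40 in Muc1, Muc4, Muc20 and Muc16. Repeats inside a coding sequence bear on how reads can be placed: 24.7% of the 50-base words of Muc13, 22.8% of those of Muc5b, 12.7% of Muc6, 11.0% of Muc4, 2.06% of Muc16 and 1.52% of Muc1 occurred more than once in the same coding sequence, and no 50-base word of Muc15 or Muc20 did. Sources used here give neither the read length nor how such reads were handled.

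Muc1, Muc4 and Muc20 made up most of the mucin message, and all 3 were higher at estrus. These reached 1 FPKM in all 7 libraries. Muc16, Muc13, Muc15 and Muc5b did so in 3, 2, 1 and 1 libraries, and Muc6 in none. At diestrus the order of mean levels was Muc1, Muc4, Muc20, Muc16, Muc15, Muc13, Muc6 and Muc5b. The ranges of Muc4 and Muc20 overlapped there, as did those of Muc20 and Muc16, of Muc15 and Muc13, of Muc13 and Muc6, and of Muc6 and Muc5b. At estrus the order was Muc1, Muc4, Muc20, Muc13, Muc15, Muc5b, Muc16 and Muc6. At estrus the ranges of Muc13, Muc15, Muc5b and Muc16 each overlapped those of their neighbours within that run. Muc4 stood above Muc20 in 6 of the 7 libraries, the exception being diestrus replicate 4.

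**Figure D1:**
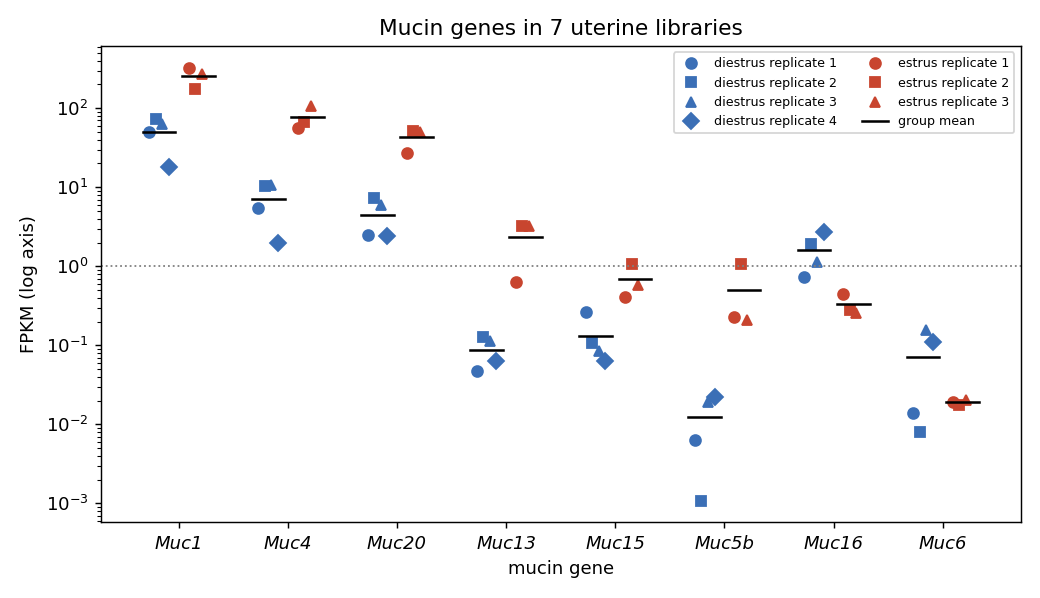
FPKM of the 8 mucin genes on a log axis, with a point for each library (blue diestrus, red estrus, shape by replicate number), a bar for the group mean and a dotted line at 1 FPKM. Estrus libraries lie above all diestrus libraries for 6 genes, below them for Muc16, and among them for Muc6.

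The groups did not overlap at 7 of the 8 genes, 6 of them higher at estrus and 1 lower, while 33.3% of all 21444 rows above 0 did not overlap in either direction and 16.5% did so with estrus higher. The limma test was run on log2(FPKM + 1) for the 13920 genes that reached 1 FPKM in 3 or more libraries, and a gene was called at a Benjamini-Hochberg adjusted p under 0.05 over all of them. This filter kept 4 of the mucins. Muc1, Muc4 and Muc20 were called higher at estrus and Muc16 lower, against 31.1% of all tested genes called (17.2% higher, 14.0% lower). Muc16 passed the filter only through its diestrus libraries, so its call is not independent of the filter. The other 4 mucins were not tested in this fit.

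Muc1, the transmembrane mucin of the uterine luminal surface (GRCm38 chromosome 3, 89229057 to 89233381, plus strand, protein-coding), was the highest of the 8 genes in every library. It was at 49.5, 72.7, 62.3 and 18.01 FPKM in diestrus replicates 1 to 4 and at 326.9, 177.2 and 273.1 FPKM in estrus replicates 1 to 3. The estrus libraries all lay above the diestrus libraries, by 2.44 times between the nearest libraries, and diestrus replicate 4 was the lowest of all. Mean levels were 50.6 ± 23.7 FPKM (SD, n = 4) and 259.1 ± 75.8 FPKM (SD, n = 3). On the log2 scale Muc1 rose by 2.45 ± 0.46 (SE), with a limma adjusted p of 0.00864. By level, Muc1 ranked between 898th and 5127th among all rows in the diestrus libraries and between 153rd and 359th in the estrus libraries. The call held with each library left out, with adjusted p values up to 0.0344.

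Muc4, a membrane mucin that can bind the receptor ErbB2 (chromosome 16, 32735886 to 32782391, plus strand), had the largest log2 fold change of the 4 tested mucins. It stood at 5.55, 10.5, 10.7 and 1.95 FPKM in diestrus replicates 1 to 4 and at 56.2, 66.1 and 108.0 FPKM in estrus replicates 1 to 3. The lowest estrus library was 5.26 times the highest diestrus library. The mean rose from 7.17 ± 4.22 FPKM (SD, n = 4) to 76.8 ± 27.5 FPKM (SD, n = 3), by 3.39 ± 0.49 (SE) on the log2 scale (limma adjusted p = 0.00369).

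Muc20, a small membrane mucin (chromosome 16, 32777419 to 32797435, minus strand), is the neighbour of Muc4 and rose with it. Its values were 2.49, 7.25, 5.92 and 2.39 FPKM in diestrus replicates 1 to 4 and 27.0, 51.7 and 50.5 FPKM in estrus replicates 1 to 3. No diestrus library came near the estrus libraries, the nearest pair differing 3.72 times, and diestrus replicates 1 and 4 were the low libraries. The mean rose from 4.51 ± 2.46 FPKM (SD, n = 4) to 43.0 ± 13.9 FPKM (SD, n = 3), by 3.05 ± 0.39 (SE) on the log2 scale (limma adjusted p = 0.0025). With single libraries left out the adjusted p reached 0.0217 for Muc4 and 0.0184 for Muc20. The 2 genes run towards each other and overlap at their 3′ ends over 4973 bases (chromosome 16, 32777419 to 32782391), in which 627 exon bases belong to both, out of 11757 exon bases of Muc4 and 4027 of Muc20. The sources used here do not state strand-specific counting, so reads from those 627 bases cannot be told apart. The ratio of Muc4 to Muc20 varied between 0.82 and 2.23 over the diestrus libraries and between 1.28 and 2.14 over the estrus libraries.

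Muc16, the membrane mucin whose shed human form is the antigen CA125 (chromosome 9, 18495455 to 18674530, minus strand), was the only one of the 8 with a lower level at estrus in every library. It was at 0.73, 1.94, 1.13 and 2.70 FPKM in diestrus replicates 1 to 4 and at 0.45, 0.28 and 0.26 FPKM in estrus replicates 1 to 3. Diestrus replicate 4, lowest for Muc1, Muc4 and Muc20, was highest for Muc16, and diestrus replicate 1 was its nearest to estrus. The mean fell from 1.63 ± 0.88 FPKM (SD, n = 4) to 0.33 ± 0.10 FPKM (SD, n = 3), which on the log2(FPKM + 1) scale was -0.92 ± 0.26 (SE, limma adjusted p = 0.0341), a scale that understates changes this near 0. The call was lost without estrus replicates 1, 2 or 3 (adjusted p = 0.0739, 0.116 and 0.0811), and without diestrus replicates 2, 3 or 4 the gene no longer passed the filter. Without diestrus replicate 1 the adjusted p was 0.0103.

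The regions before the 4 tested genes are shown because the study mapped binding of the estrogen receptor, the progesterone receptor and Hif2a in this tissue, data not analysed here. Each is the 250 bases before the annotated start, 5′ to 3′ on the gene's strand, from RefSeq on GRCm38.p6. The regions are chr3:89228806-89229055 for Muc1, chr16:32735636-32735885 for Muc4, chr16:32797436-32797685 (minus strand) for Muc20 and chr9:18674604-18674853 (minus strand) for Muc16. Capitals mark every match to the searched motifs.
Muc1: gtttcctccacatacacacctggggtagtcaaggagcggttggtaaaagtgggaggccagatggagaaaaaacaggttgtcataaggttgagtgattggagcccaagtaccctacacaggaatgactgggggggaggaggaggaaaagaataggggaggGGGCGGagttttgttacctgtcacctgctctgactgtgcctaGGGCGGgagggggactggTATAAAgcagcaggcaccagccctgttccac
Muc4: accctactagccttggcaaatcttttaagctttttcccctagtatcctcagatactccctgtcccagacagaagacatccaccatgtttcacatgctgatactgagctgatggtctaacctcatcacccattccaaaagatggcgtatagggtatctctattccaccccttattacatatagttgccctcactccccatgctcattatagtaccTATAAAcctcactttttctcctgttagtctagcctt
Muc20: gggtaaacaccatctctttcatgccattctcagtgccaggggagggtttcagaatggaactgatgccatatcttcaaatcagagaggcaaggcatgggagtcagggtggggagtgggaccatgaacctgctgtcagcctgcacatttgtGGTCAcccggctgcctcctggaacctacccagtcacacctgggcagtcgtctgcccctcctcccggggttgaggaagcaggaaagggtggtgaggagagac
Muc16: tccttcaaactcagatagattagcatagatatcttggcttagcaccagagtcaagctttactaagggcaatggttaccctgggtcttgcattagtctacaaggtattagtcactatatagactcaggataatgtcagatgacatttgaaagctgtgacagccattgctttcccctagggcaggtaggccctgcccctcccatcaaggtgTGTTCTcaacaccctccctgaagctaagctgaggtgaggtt
Both strands were searched for the full estrogen response element and a single arm of it (GGTCA), the full progesterone response element and a single arm of it (AGAACA), the hypoxia response element ACGTG, the GC box GGGCGG and the TATA box TATAAA. A full estrogen element holds the arm GGTCA, so those matches overlap. Muc1 held the GC box 91 and 49 bases before the start, a motif found in 32.7% of 32851 promoter windows of this length. Muc1 and Muc4 held TATAAA 31 and 36 bases before the start, found in 12.4% of windows. Muc20 held 1 estrogen element arm 101 bases before the start (35.2% of windows), and Muc16 held 1 progesterone element arm on the opposite strand 41 bases before it (16.1%). Neither full receptor element nor ACGTG was present in these 4 windows. In all windows they occurred in 0.0639% (estrogen), 0.387% (progesterone) and 16.6% (ACGTG).

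Among the 4 mucins not tested, Muc13, Muc15 and Muc5b were higher in every estrus library than in any diestrus library, at low levels throughout. Muc13, a membrane mucin best known from the gut (chromosome 16, 33794037 to 33819934), was at 0.048, 0.129, 0.112 and 0.064 FPKM in diestrus replicates 1 to 4 and at 0.63, 3.26 and 3.20 FPKM in estrus replicates 1 to 3. Estrus replicates 2 and 3 stood about alike and replicate 1 lower, and the group means were 0.088 ± 0.039 and 2.36 ± 1.502 FPKM (SD, n = 4 and 3). Muc15, a small membrane mucin (chromosome 2, 110721340 to 110739527), was at 0.27, 0.11, 0.085 and 0.063 FPKM at diestrus and at 0.41, 1.07 and 0.57 FPKM at estrus. Its groups came closest, with the lowest estrus library 1.52 times the highest diestrus library. Muc5b, the gel-forming mucin of airway and cervical mucus (chromosome 7, 141839070 to 141873084), was at 0.0063, 0.0011, 0.019 and 0.022 FPKM at diestrus and at 0.23, 1.06 and 0.21 FPKM at estrus. Estrus replicate 2 was the high library, and the group means were 0.012 ± 0.010 and 0.50 ± 0.48 FPKM. Muc6, the gland mucin of the stomach (chromosome 7, 141633456 to 141655319), was never above 0.157 FPKM and did not separate the groups: 0.014, 0.0081, 0.157 and 0.110 FPKM at diestrus and 0.019, 0.018 and 0.021 FPKM at estrus.

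In a fit with no filter on low values, Muc13 and Muc15 passed (log2 fold changes of 1.498 and 0.56, limma adjusted p = 0.027 and 0.0337) while Muc5b, Muc6 and Muc16 did not (adjusted p = 0.0887, 0.364 and 0.0504), against 18.8% of 21444 rows called. With no filter and a smaller pseudocount of 0.1, an alternative added after the values were seen, Muc13, Muc15 and Muc5b had log2 fold changes of 3.43, 1.75 and 2.13 (adjusted p = 0.00871, 0.0219 and 0.0185). Muc16 had -1.88 (adjusted p = 0.0288) there, and Muc6 had -0.43 (adjusted p = 0.364). In that fit 10.8% of rows were called higher and 9.83% lower.

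Markers of stratified squamous epithelium, which lines the vagina and outer cervix, went in different directions. Of the 18 markers in the list, 5 were higher in every estrus library than in any diestrus library (Krt5, Krt14, Krt6a, Krt6b and Krt1) and 2 were lower (Sbsn and Lypd3), beside the 33.3% of all rows above 0 whose groups did not overlap. The highest library was estrus replicate 2 for 7 markers, another estrus library for 4 and a diestrus library for 7. Krt14, a basal keratin, was at 1.15, 7.81 and 0.37 FPKM in estrus replicates 1 to 3, and Krt5, its partner, at 0.83, 3.17 and 0.67 FPKM. As with Muc5b, replicate 2 was the highest and replicates 1 and 3 were low. Krt6b was at 0.71, 16.4 and 11.4 FPKM in the same libraries, low in replicate 1 as Muc13 was. These keratins are described because their highest estrus libraries match those of the low mucins, a choice made after the values were seen. In the diestrus libraries Krt14, Krt5 and Krt6b did not exceed 0.22, 0.13 and 0.38 FPKM. Over the whole list of 18 squamous markers the summed level was 12.9 to 20.8 FPKM at diestrus and 14.7 to 50.5 FPKM at estrus. The list's defining transcription factor Trp63 stayed at 0.28 to 0.66 FPKM at diestrus and 0.23 to 0.46 FPKM at estrus. Of its desmosome genes, Dsg1a and Dsc3 did not exceed 0.0129 and 0.0905 FPKM in any library. Dsg3 was at 0.053 to 0.55 FPKM at diestrus and at 0.18, 1.20 and 2.11 FPKM in estrus replicates 1 to 3. Of the 18 markers 6 stayed under 1 FPKM everywhere and 4 were tested, of which limma called 0. Sbsn, a cornified layer gene, was the 1 with an unadjusted p under 0.05, and its direction was lower at estrus (8.38 and 3.36 FPKM, log2 fold change -1.002, adjusted p = 0.0531). Their part in the levels of Muc5b and Muc13 was not tested. Of 6 tested oviduct and ciliated cell markers, 2 fell (Ovgp1 and Ccdc39) and none rose, beside 14.0% and 17.2% of all tested genes. Ovgp1 was lost without estrus replicate 2, and Ccdc39 passed the filter only through its diestrus libraries. The list's summed level was 96.9 to 141.9 FPKM at diestrus and 80.5 to 94.6 FPKM at estrus.

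**Figure D2:**
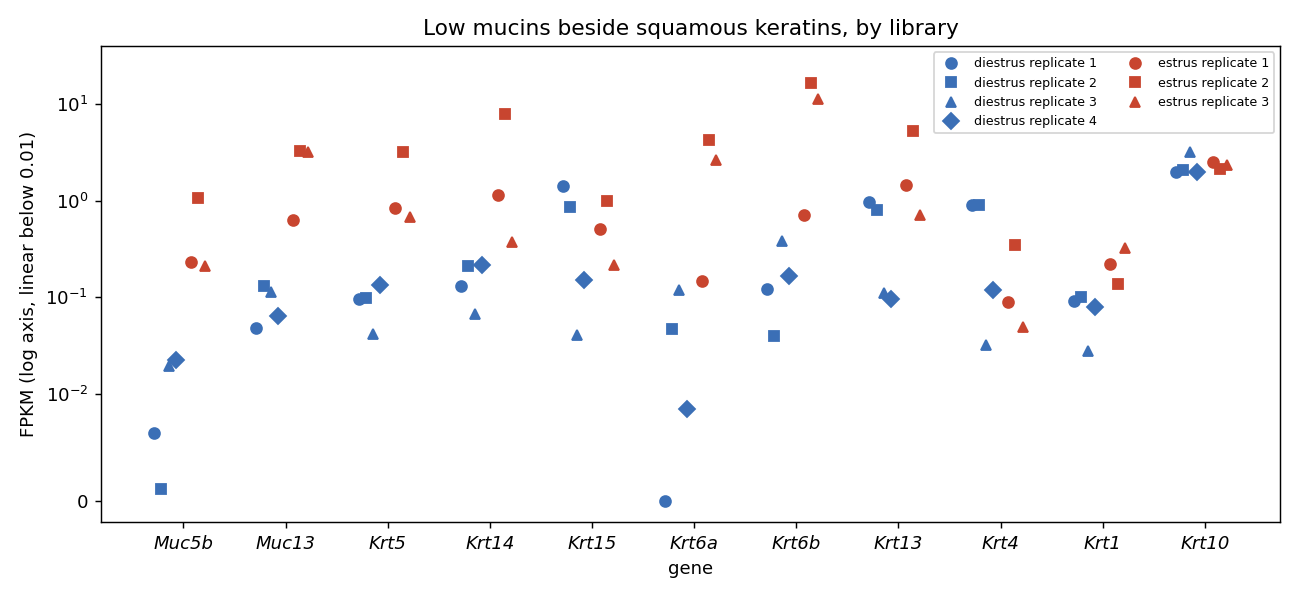
FPKM of Muc5b and Muc13 beside the 9 keratins of the squamous list in each of the 7 libraries (log axis, linear below 0.01, blue diestrus, red estrus, shape by replicate number). Estrus replicate 2 is the highest library for Muc5b, Muc13 and 5 of the keratins, another estrus library for 1 (Krt1), and a diestrus library for 3 (Krt15, Krt4 and Krt10).

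The make-up of the mucin message differed between libraries as well as its amount. The 8 genes summed to 58.6, 92.7, 80.4 and 25.3 FPKM in diestrus replicates 1 to 4 and to 411.8, 300.7 and 435.8 FPKM in estrus replicates 1 to 3. Muc1 held 77.9% ± 5.45 of the sum at diestrus (SD, n = 4) and 67.0% ± 10.9 at estrus (SD, n = 3), a difference within the spread since estrus replicate 1 was at 79.4%. Muc4 held 10.4% ± 2.41 and 20.1% ± 5.79, and its share was higher in every estrus library, although 13.7% in estrus replicate 1 barely passed the 13.3% of diestrus replicate 3. Muc16 held 10.7% of the sum in diestrus replicate 4, 1.24 to 2.09% in the other diestrus libraries and at most 0.11% at estrus. The ratio of Muc1 to Muc4 was 5.83 to 9.25 at diestrus and 5.81, 2.68 and 2.53 in estrus replicates 1 to 3. Whether the shares differ between the stages was not tested.

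**Figure D3:**
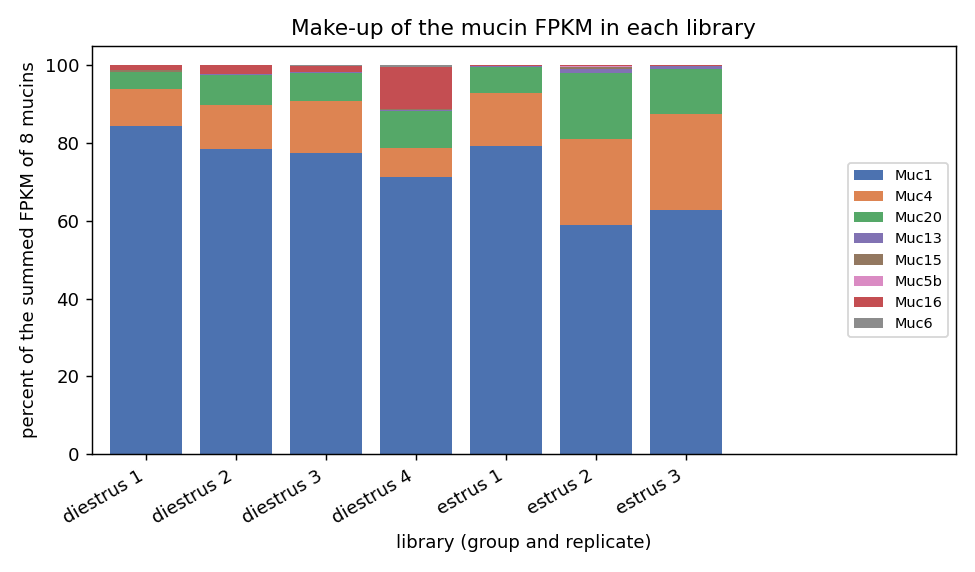
Percent of the summed FPKM of the 8 mucins held by each gene (stacked colours) in each library. Muc1 takes 58.9 to 84.5% in every library, Muc4 and Muc20 most of the rest, and Muc16 a visible share only at diestrus, with 10.7% in replicate 4.

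Epithelial markers rose at estrus together with the mucins. Epcam, a pan-epithelial adhesion molecule, rose from 131.2 ± 29.6 to 310.2 ± 41.3 FPKM, and Cdh1 (E-cadherin), Krt8 and Krt19 had log2 fold changes of 1.41, 1.92 and 2.23 (limma adjusted p = 0.00716, 0.00224 and 0.00293). Krt18, the keratin partner of Krt8, did not pass (log2 fold change 0.31, adjusted p = 0.430). Of 20 tested epithelium markers 14 rose and none fell, against 17.2% and 14.0% of all genes, with a median log2 fold change of 1.31 and of 0.048 for all tested genes, and their summed level was 1976 to 2785 FPKM at diestrus and 5841 to 6402 FPKM at estrus. None of the 20 epithelium, 12 stroma or 10 smooth muscle markers of this whole uterus stayed under 1 FPKM in every library. Of 12 stroma markers 5 fell, of 10 endothelium markers 9 fell, of 8 leukocyte markers 3 fell and 1 rose, and of 10 smooth muscle markers 1 rose and 1 fell. Without estrus replicate 2 the counts were 12 rises of epithelium markers, 2 falls of stroma markers, 0 of endothelium markers, 1 of leukocyte markers and 0 changes of smooth muscle markers. Calls over all tested genes dropped in that fit too, from 2393 to 854 higher and from 1943 to 579 lower. Of 16 tested genes known to rise in uterine epithelium under estrogen, a list that includes Muc1, 12 rose and none fell, and 7 rose without estrus replicate 2. This list was chosen with earlier results of these data known, so its counts are given only as a description. On the scale centred on epithelial genes described next, 8 of these 16 rose and 3 fell, beside 1.45% and 88.7% of all tested genes. In whole tissue, more epithelial cells and more RNA per epithelial cell cannot be told apart.

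The 4 tested mucins were therefore also compared with 5 epithelial genes, whose own log2 fold changes ran from 0.31 (Krt18) to 2.23 (Krt19). The mean of these genes is thus not a measure of the amount of epithelium. When every library was centred on the mean log2(FPKM + 1) of Epcam, Cdh1, Krt8, Krt18 and Krt19, whose mean was higher by 1.42 at estrus, the median of all tested genes moved to -1.37. Muc1, Muc4 and Muc20 still rose, by 1.03, 1.97 and 1.63 on the log2 scale (SE 0.39, 0.40 and 0.35, limma adjusted p = 0.0285, 0.000926 and 0.00126), while 1.45% of tested genes were called higher and 88.7% lower under this centring. Of the 20 epithelium markers, 6 were also called higher and 5 lower on this scale. Among the 6 were the reference genes Krt8 and Krt19, with log2 fold changes of 0.49 and 0.80 (limma adjusted p = 0.0413 and 0.0163). A rise past the reference was thus not particular to the mucins. Muc16 was at -2.35 by this measure. Centring lowers every log2 fold change by the same 1.42, so that Muc6, near 0 in all libraries, lay at -1.49. The value of Muc16 on this scale is therefore not read as a change. Relative to the reference genes, Muc1 was at -1.53, -0.75, -1.12 and -2.43 in diestrus replicates 1 to 4 and at 0.07, -1.01 and -0.33 in estrus replicates 1 to 3, so estrus replicate 2 overlapped the diestrus range. For Muc4 (-5.11 to -3.43 and -2.45 to -1.66) and Muc20 (-5.39 to -3.91 and -3.48 to -2.75) the groups did not overlap on this scale.

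**Figure D4:**
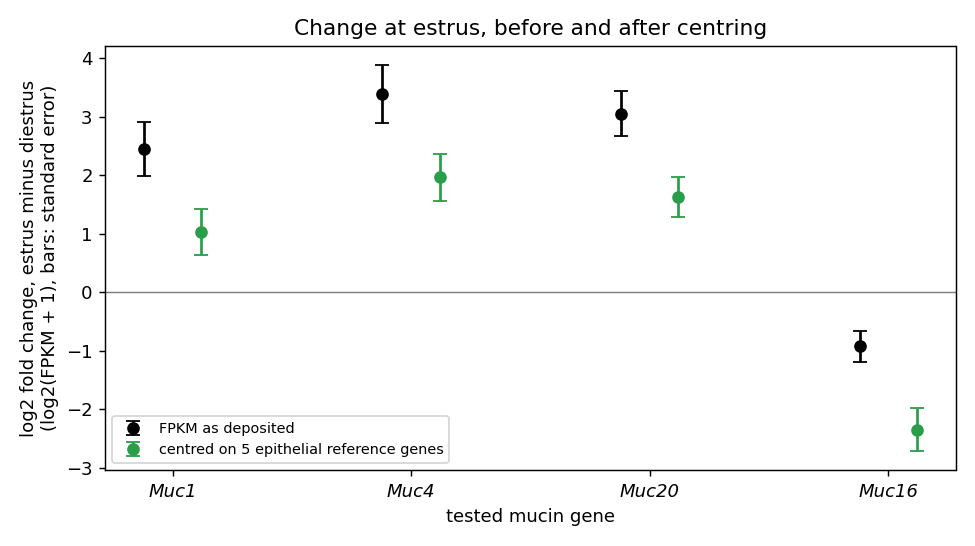
Log2 fold change at estrus of the 4 tested mucins on log2(FPKM + 1), with standard errors, from the FPKM as deposited (black) and after each library was centred on 5 epithelial reference genes (green). Muc1, Muc4 and Muc20 stay above 0 at 1.03, 1.97 and 1.63, and Muc16 lies below 0 in both. Centring lowers every gene by the same amount.

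Other mucin family genes were checked from a list of 14, of which 11 had a row and 6 stayed under 1 FPKM in every library. Muc5ac, the gel-forming mucin beside Muc5b, was at 0.0045, 0.075, 0.022 and 0.0042 FPKM in diestrus replicates 1 to 4 and at 0.33, 0.92 and 0.79 FPKM in estrus replicates 1 to 3, so its groups did not overlap. Unfiltered, it rose by 0.69 ± 0.12 (SE) on the log2 scale (limma adjusted p = 0.0134). Muc2, the intestinal gel-forming mucin in the same chromosome 7 cluster, stayed at 0.028 to 0.067 FPKM in all libraries, Muc19 did not exceed 0.0042 FPKM, Mucl1 was above 0 in 1 library, Dpcr1 did not exceed 0.90 FPKM and Muc3 was listed at 0 in all 7. Cd164, a widely expressed mucin-like sialomucin, rose from 185.2 ± 36.2 to 371.1 ± 60.7 FPKM (adjusted p = 0.0114, and 0.055 without estrus replicate 2). Emcn (endomucin) and Podxl (podocalyxin), sialomucins of endothelium, fell by 1.37 and fell by 0.96 on the log2 scale (adjusted p = 0.013 and 0.0028). Ovgp1, oviduct-specific glycoprotein, fell from 22.5 ± 21.1 to 1.54 ± 0.87 FPKM (adjusted p = 0.012). Without estrus replicate 2 the adjusted p was 0.0642 for Emcn and 0.0568 for Ovgp1. Mcam, an adhesion molecule also called Muc18, did not pass (log2 fold change -0.54, adjusted p = 0.169). Of the 5 tested genes of this list 1 rose and 3 fell, with a median of -0.96, beside 17.2% and 14.0% of all tested genes. Without estrus replicate 2 none rose and 1 fell, in a fit that called fewer of all genes as well. Under epithelial centring none rose and 4 fell, beside 1.45% and 88.7% of all tested genes. Cd164 then had a log2 fold change of -0.41 (limma adjusted p = 0.137).

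Goblet cell and mucus secretion genes went both ways. Of 19 tested, 7 rose and 3 fell, with a median log2 fold change of 0.36, beside 17.2% and 14.0% of all tested genes and a median of 0.048. Without estrus replicate 2, 4 rose and 2 fell. Under epithelial centring 4 rose and 14 fell, beside 1.45% and 88.7% of all tested genes. Fcgbp, a mucus protein that binds gel-forming mucins, rose from 25.5 ± 18.8 to 386.4 ± 219 FPKM (log2 4.01, limma adjusted p = 0.00801). The row Clca3, the older symbol of the goblet cell protein gob-5, went from 64.3 ± 31.7 to 1040 ± 816 FPKM and was at 267.5, 959.9 and 1894 FPKM in estrus replicates 1 to 3 (adjusted p = 0.00871). Both thus stood far above the gel-forming mucins Muc5b, Muc5ac, Muc2 and Muc6. Rab27b, a GTPase of secretory granule docking, rose from 0.96 ± 0.25 to 7.89 ± 0.20 FPKM. Of its diestrus libraries only replicate 2 reached 1 FPKM (1.23), so its call is not independent of the filter. The potassium channel gene Kcnn4 rose by 2.88 on the log2 scale (limma adjusted p = 0.00222). Foxa2, the gland transcription factor, fell by 1.06, Scin, an actin-severing protein, fell by 1.03, and Creb3l4, a transcription factor, fell by 0.66, although Creb3l4 did not pass without estrus replicate 1 or 2 (adjusted p up to 0.0905). Spdef, a goblet cell transcription factor, was at 1.26 FPKM at diestrus and 0.51 FPKM at estrus (adjusted p = 0.0546).

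Among 20 tested genes that start and extend O-glycans, 9 rose and 1 fell, with a median of 0.68, beside 17.2% and 14.0% of all tested genes. Galnt5, among the 9, was at 0.42 to 0.88 FPKM at diestrus and passed the filter only through its estrus libraries. Its call is thus not independent of the filter. Without estrus replicate 2, 5 rose and none fell. Under epithelial centring, which lowers every log2 fold change by the same amount, 2 were called higher and 10 lower. The shares over all tested genes were 1.45% and 88.7%. The enzymes Galnt12, Galnt3 and Galnt7, which attach the first sugar of mucin-type glycans, rose from 5.48 ± 0.85 to 41.2 ± 3.43 FPKM, from 6.81 ± 2.05 to 36.5 ± 2.52 FPKM and from 11.1 ± 2.72 to 35.0 ± 4.86 FPKM (limma adjusted p = 0.000279, 0.00124 and 0.00207). Centred, Galnt12 and Galnt3 still passed (log2 fold changes of 1.29 and 0.88), and Galnt7 did not (0.17, adjusted p = 0.392). Gcnt1, which makes the core 2 branch, fell from 14.6 ± 2.36 to 7.94 ± 2.13 FPKM (adjusted p = 0.018), and did not pass without estrus replicate 2 or 3 (up to 0.0832).

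Of 20 tested genes for terminal sugars and sulfate, 6 rose and 6 fell, with a median of -0.26, beside 17.2% and 14.0% of all tested genes. Without estrus replicate 2 the counts were 4 and 2. Under epithelial centring they were 1 and 15, beside 1.45% and 88.7% of all tested genes. The rises with the smallest p-values were those of Fut2, Fut1 and Fut4, which encode fucosyltransferases. The next, named after values were seen, was the sialyltransferase gene St6galnac2, which rose from 17.6 ± 3.84 to 37.9 ± 4.403 FPKM (limma adjusted p = 0.00574). Fut2 rose from 35.3 ± 13.7 to 167.8 ± 40.4 FPKM, Fut4 from 3.64 ± 0.71 to 8.11 ± 0.91 FPKM and Fut1 from 0.22 ± 0.16 to 1.38 ± 0.14 FPKM (limma adjusted p = 0.00337, 0.00524 and 0.00479). Fut1 passed the filter only through its estrus libraries, so its call is not independent of the filter. Centred, Fut2 still passed as higher (log2 fold change 0.85, limma adjusted p = 0.0073). Fut4 was at -0.44 (adjusted p = 0.0446) and Fut1 at -0.46 (adjusted p = 0.0682). Centring lowers every gene by the same amount, so the values of Fut4 and Fut1 on this scale are not read as falls. The falls with the smallest p-values were the sulfotransferase Chst1, which fell by 1.02, and the sialyltransferases St3gal6 and St6galnac4, which fell by 1.48 and fell by 0.63, St6galnac4 with an adjusted p of 0.0572 without estrus replicate 2. Of 20 genes that shed or bind membrane mucins, 8 rose and none fell, with a median of 0.59, beside 17.2% and 14.0% of all tested genes. Without estrus replicate 2, 3 rose. Under epithelial centring none rose and 15 fell, beside 1.45% and 88.7% of all tested genes. The metalloproteases Adam9 and Adam17, the second a known Muc1 sheddase, rose by 1.01 and 0.62 on the log2 scale (adjusted p = 0.00428 and 0.00768, the latter 0.0511 without estrus replicate 2), and the galectin Lgals9 rose by 1.14 (adjusted p = 0.00725). Centred, their log2 fold changes were -0.41 for Adam9, -0.81 for Adam17 and -0.28 for Lgals9, of which that of Adam17 passed (limma adjusted p = 0.00104). Since centring lowers every gene by the same amount, these values are not read as falls.

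**Figure D5:**
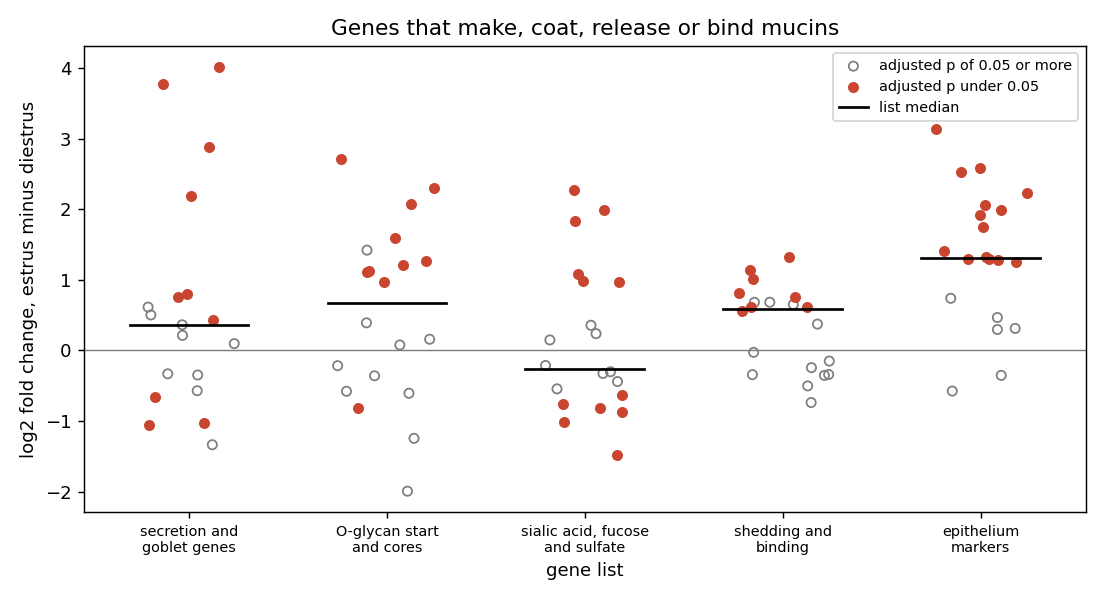
Log2 fold change at estrus of each tested gene in 4 lists of mucin-related genes and in the epithelium markers (filled points adjusted p under 0.05, open points not, bar at the list median). The medians lie at 0.36, 0.68, -0.26, 0.59 and 1.31 from left to right.

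No other tested gene near Muc1, Muc4 or Muc20 was called higher, beside 17.2% of all tested genes called higher and 14.0% lower. With so few genes, the counts do not set these regions apart from those shares. This look at position was chosen after the values were seen. Within 100 kb of Muc4 and Muc20, the other tested genes were Tnk2 and Fyttd1, with log2 fold changes of -0.04 and -0.02 (limma adjusted p = 0.865 and 0.944). Within 100 kb of Muc1, 12 genes were tested, of which none rose and 2 fell (Fam189b and Efna1, with log2 fold changes of -0.91 each, Efna1 in only 1 of the 7 fits that left out a library). Trim46, the gene next to the 3′ end of Muc1, went from 2.92 to 5.28 FPKM on average (adjusted p = 0.0645). Among the neighbours of Muc16, Naalad2 fell by 0.93 (adjusted p = 0.0108).

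The genes whose log2(FPKM + 1) most resembled each abundant mucin over the 7 libraries were taken by Pearson correlation among 10057 other tested genes that averaged 5 FPKM or more. They share the libraries and the stage difference with the mucin, so r is given as a description. For Muc1 they were Fibp, Ctbp2 and Pdzd8 (r = 0.980, 0.968 and 0.968), whose diestrus and estrus means lay much closer, at 21.8 and 30.4, 38.6 and 47.6, and 15.2 and 21.1 FPKM. For Muc4 they were Lcn2, the siderophore carrier, Mpzl2 and Cyp21a1 (r = 0.990, 0.989 and 0.989), and for Muc20 they included Pkp4 and Oasl1 (r = 0.993 and 0.992). Muc4 and Muc20 had r = 0.976 with each other, Muc1 and Muc4 0.966, and Muc1 and Muc20 0.908. The receptor genes Esr1 and Pgr did not pass between the stages (limma adjusted p = 0.188 and 0.187). For Pgr this rested on diestrus replicate 1, at 109.3 FPKM. Without that library Pgr passed as higher at estrus, while Esr1 passed in no fit that left out a library.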

How the data were processed

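RNA was sequenced from whole uteri after on-column DNase treatment and an Illumina TruSeq RNA kit, per the labels' protocols. The authors deposited FPKM, 1 column per library, with no columns left unmatched (0). Per the submitters' processing notes, the tool was TopHat2 2.0.4 and the build mm10, with no role stated. Sources used here give neither the FPKM program, its annotation nor its strand setting.

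Rows reaching 1 FPKM in 3 or more libraries (13920) were fitted on log2(FPKM + 1) over all 7 libraries with limma 3.58.1 (R 4.3.3), its prior variance following mean level. Tests were two-sided with Benjamini-Hochberg adjustment. Fold changes are estrus minus diestrus. The fit was tested on simulated data.

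The members and lists were chosen with earlier results of these data known. Named genes were the 8 members, other mucins at 1 FPKM or more in any library, up to 3 called genes per direction from each mucin-related list with the smallest p-values, the 3 genes most correlated with each member averaging at least 5 FPKM, the epithelial reference genes, Esr1 and Pgr. Other low mucins, squamous markers, positional neighbours, Spdef, St6galnac2, Galnt5, Xbp1 and Clca3 were named after values were seen. Clca3 replaced Clca1 in the goblet list after values were seen, since RefSeq gives Clca3 as a synonym of the goblet cell gene, which raised that list's median and its number of rises. Missing symbols were skipped, and 1 gene that the rule names is not reported here. Alternatives were other pseudocounts, filters, scalings and moderation, library weights, each library left out in turn, and a replicate block.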

Additional observations from a re-analysis of the deposited data

Results flagged for a closer look

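Pgr was at 109.3 FPKM in diestrus replicate 1, far from the other diestrus libraries, which lay between 29.3 and 42.6 FPKM. In that library Muc16 was at 0.73 FPKM, the diestrus value nearest to estrus, while Muc1, Muc4 and Muc20 were not the highest of their group. Among groups of 4 libraries, about 1 in 20 holds such a value by chance. Pgr was not alone: Xbp1, of the goblet list, was at 77.6 FPKM in diestrus replicate 2 and at 193.4 to 200.2 FPKM in the other diestrus libraries. None of the 8 mucins had a diestrus FPKM value set apart in this way. The share of Muc16 in the summed mucin FPKM did, at 10.7% in diestrus replicate 4 and 1.24 to 2.09% in the others. Groups of 3, as at estrus, were not examined.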

How the results depend on the processing

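Muc1, Muc4 and Muc20 stayed higher and past the threshold in every alternative run. Muc16 stayed lower wherever it was tested, but the number of mucins called lower went from 1 to 0 with a pseudocount of 5, no filter, a mean of at least 5 FPKM, quantile normalization and the replicate block, and to 0 to 1 with single libraries left out. Mucins called higher numbered 5 with no filter and 6 with no filter and a pseudocount of 0.1. Over all genes, 2393 were higher and 1943 lower. These counts became 202 and 12351 with epithelial centring, 4944 and 4423 with library weights, 1299 and 982 with the replicate block, and 854 to 2866 and 579 to 2445 with single libraries left out, the fewest without estrus replicate 2. Genes lower numbered 1181 at a mean of at least 5 FPKM. Quantile normalization gave 1684 higher and 1914 lower. Same-numbered libraries deviated together with r = 0.198, 0.0243 and 0.169 for replicates 1 to 3, so the numbers were not taken as pairs. Under the replicate block Muc1, Muc4 and Muc20 had log2 fold changes of 2.03, 2.97 and 2.86 and Muc16 -0.74 (limma adjusted p = 0.0188, 0.00588, 0.00547 and 0.0894). FPKM carries no read count, so the precision of mucins under 1 FPKM is unknown.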
